A study of Mus musculus with 10 samples.

Results

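The genes described here are 47 genes of the cell division cycle, 18 that serve DNA replication and 29 that serve mitosis, followed in neutrophil preparations from mouse bone marrow. They were chosen as a fixed list of gene symbols, and each gene was read from a probe set that names no other gene, the brightest on average over the 10 arrays where there were several. Such a probe set was found for 46 of the 47 genes, of 19938 genes in all. Cyclin B1 (Ccnb1) was not analysed here. All 46 were followed by array, and 45 (17 replication and 28 mitosis genes) had signals high enough to be tested, among 14070 tested genes. To be tested, a gene had to exceed 8.18 on the log2 scale, the median of all values, on 2 or more arrays. The exception was Gins1, a subunit of the GINS complex of the replicative helicase, whose highest signal was 7.97.

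The 4 groups were Lcn2 knockout cells stimulated with fMLP (2 arrays), wild type cells stimulated with fMLP (2 arrays), unstimulated Lcn2 knockout cells (3 arrays) and unstimulated wild type cells (3 arrays). Lcn2 encodes lipocalin 2, a protein of the secondary granules of neutrophils, and fMLP is a formylated peptide of bacterial type that attracts and activates neutrophils. Stimulation was at 10 µM for 20 min at 37 °C. All mice are labelled as female C57bl/6, 10 weeks old, and the cells were taken between Percoll layers of 81% and 62% after lysis of red cells. How the knockout allele was made, whether replicates came from separate mice and whether unstimulated cells were also warmed is not stated, so p-values measure only the spread between these arrays, which may be technical. The number of arrays limits the precision.

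Mature neutrophils have left the cell cycle, while their precursors in the marrow, the myeloblasts, promyelocytes and myelocytes, still divide, as do erythroid and B cell precursors. Replication genes are transcribed around the entry into S phase, mainly under E2F transcription factors, and their products license origins, unwind DNA and supply nucleotides. Mitosis genes are transcribed later, in G2 and M phase, under the MuvB complex with B-Myb and FOXM1, which acts through a promoter element called CHR, often next to CCAAT boxes bound by NF-Y. Both groups are silenced in cells that leave the cycle.

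The promoters of the genes held different letters in the 2 lists. RefSeq promoter windows (build GRCm38.p6, 250 bases before to 50 bases after a gene's start, 300 in all) matched 14 of the 18 replication genes and 24 of the 29 mitosis genes by symbol. A CHR match (TTTGAA or TTCGAA, on either strand) stood in a window of 19 of 24 mitosis genes (79.2%) and 3 of 14 replication genes (21.4%), against 21.7% of all 27025 genes with a window. A match to an E2F site (TTTCCCGC, TTTCGCGC, TTTGCCGC or TTTGGCGC, on either strand) stood in 1 of 24 mitosis genes (4.17%) and 6 of 14 replication genes (42.9%), against 2.60% of all genes. CCAAT, on either strand, stood in 83.3% of the mitosis genes and 64.3% of the replication genes, against 41.1% of all genes. In the members' windows 1 CHR match and 1 E2F match overlapped a CCAAT match. These shares describe letters in a window, and some genes have more than 1 window. The windows of 4 genes that were called for fMLP without 1 array, fMLP knockout replicate 2, and not with all 10 arrays, are printed 5′ to 3′ on the gene's strand, with matches in capitals, to show the E2F letters of Mcm3 and Cdt1 (TTTGGCGC in both, and GCGGGAAA, the other strand of TTTCCCGC, in Mcm3) beside the CHR letters near the start of Ttk and Cenpf. Matches to the CCAAT box are also in capitals. The other members called without that array did not all follow their list. Fen1 had 0 E2F matches in its windows and a CHR match in 1 of them. Cenpe had 0 CHR matches, Cdca8 had 1, and Ccne2 had no matched window.
Mcm3, chr1:20820263-20820562, reverse strand: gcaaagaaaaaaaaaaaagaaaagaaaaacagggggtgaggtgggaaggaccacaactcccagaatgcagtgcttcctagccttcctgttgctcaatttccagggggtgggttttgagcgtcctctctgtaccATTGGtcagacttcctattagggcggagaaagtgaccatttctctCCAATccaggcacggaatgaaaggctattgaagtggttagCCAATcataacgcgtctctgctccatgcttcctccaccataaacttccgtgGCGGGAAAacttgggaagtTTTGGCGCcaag
Cdt1, chr8:122567765-122568064, forward strand: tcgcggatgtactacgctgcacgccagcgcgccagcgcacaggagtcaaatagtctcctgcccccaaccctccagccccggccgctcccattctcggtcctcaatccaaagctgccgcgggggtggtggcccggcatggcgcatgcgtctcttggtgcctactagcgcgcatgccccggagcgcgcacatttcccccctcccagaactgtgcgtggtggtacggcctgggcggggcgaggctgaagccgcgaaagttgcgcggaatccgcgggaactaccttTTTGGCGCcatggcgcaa
Ttk, chr9:83834439-83834738, forward strand: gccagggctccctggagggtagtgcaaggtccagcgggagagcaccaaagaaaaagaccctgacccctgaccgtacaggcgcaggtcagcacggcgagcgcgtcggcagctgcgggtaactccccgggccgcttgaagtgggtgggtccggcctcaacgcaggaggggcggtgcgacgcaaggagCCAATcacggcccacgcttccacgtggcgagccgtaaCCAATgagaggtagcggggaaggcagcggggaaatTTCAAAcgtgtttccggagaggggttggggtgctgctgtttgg
Cenpf, chr1:189688037-189688336, reverse strand: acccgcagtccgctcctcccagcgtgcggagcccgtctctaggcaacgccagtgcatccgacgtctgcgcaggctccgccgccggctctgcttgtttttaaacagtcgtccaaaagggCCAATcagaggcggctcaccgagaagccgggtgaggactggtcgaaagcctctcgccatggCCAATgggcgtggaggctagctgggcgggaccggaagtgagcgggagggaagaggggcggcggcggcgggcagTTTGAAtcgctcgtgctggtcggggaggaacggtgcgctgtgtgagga

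The arrays fell into 2 sets that differ in the spread of their values. Replicates 1 and 2 of both unstimulated groups (array set 1) had interquartile ranges of 1.64 to 1.68. The 4 fMLP arrays and replicate 3 of both unstimulated groups (array set 2) had ranges of 2.47 to 2.59. No fMLP array lies in set 1, so the fit includes the array set as a term, and the fMLP difference averaged over genotypes is that between the 4 fMLP arrays and 2 unstimulated arrays. On fMLP knockout replicate 2, the median of 14 neuron genes was 10.44, against 7.37 to 8.27 on the other arrays, and results that use it are given with and without it. Xist, the RNA of the inactive X chromosome, was 9.83 to 11.12 on the fMLP arrays and 6.88 to 7.82 on the unstimulated ones. The Y-linked Eif2s3y was 5.36 to 6.48 on the fMLP arrays and 6.77 to 7.22 on the unstimulated arrays of set 1. On the unstimulated arrays of set 2 it was 9.59 and 9.83, which goes against the label female. No unstimulated array of either set reached the Xist level of the fMLP arrays. Sex-linked signal and fMLP therefore cannot be told apart in these arrays. Lcn2 was 8.42 and 9.60 on the fMLP knockout arrays, 14.13 and 14.16 on the fMLP wild type arrays, 8.09 to 9.20 on the unstimulated knockout arrays and 13.88 to 14.02 on the unstimulated wild type arrays, which matches the genotype labels. Genes of mature neutrophils, the labelled cell type, had medians of 11.41 to 13.07 on the 10 arrays.

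Signals of the cell cycle genes depended first on the array set. Within the unstimulated arrays all 46 genes were higher on set 2 than on set 1, by a median of 1.19 for the 18 replication genes and 1.90 for the 28 mitosis genes on the log2 scale, against 0.09 for all tested genes. The smallest of these differences was 0.01, in the kinase gene Melk, and the largest 2.87, in Kif11, which encodes the kinesin that pushes spindle poles apart. Mature neutrophil genes, by their median, moved by 1.05, promyelocyte genes by 1.56 and neuron genes by -0.58 between the same arrays. On fMLP knockout replicate 2 all 46 genes stood under the average of the remaining 3 fMLP arrays, with a median difference of -0.79. The same difference had a median of -0.89 for promyelocyte, -0.95 for erythroid and -0.98 for early B cell genes, of -0.76 for myelocyte and -0.75 for mature neutrophil genes, in which all 12 and all 10 genes were lower, and of -0.11 for all tested genes. By the same difference 13 of 14 neuron genes were higher, with a median of 3.24. The part of this signal in the lower values of the other lists was not tested. In bulk samples, fewer cells of a type and less RNA per cell cannot be told apart.

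The median of the replication genes was 9.94 and 9.27 on the fMLP knockout arrays, 10.26 and 9.97 on the fMLP wild type arrays, and 9.91 and 9.88 on the unstimulated knockout and wild type arrays of set 2. That of the mitosis genes was 9.82 and 9.13 in fMLP knockout cells, 10.02 and 9.99 in fMLP wild type cells, and 10.08 and 10.19 on the same unstimulated arrays. The replication medians of the 3 fMLP arrays other than knockout replicate 2 lay above both unstimulated values, and the mitosis medians of all 4 fMLP arrays lay below both. The closest, 9.94 against 9.91 and 10.02 against 10.08, differed by less than the residual SD of the list medians (0.24 for each list). As percentiles among all genes on the array, the mitosis order held (at most 82.13 against 84.0) but the replication order did not. By that measure fMLP knockout replicate 1 (81.91) and fMLP wild type replicate 2 (81.76) lay below unstimulated knockout replicate 3 (81.93). On the unstimulated arrays of set 1 the replication medians were 8.60 and 8.84 in knockout and 8.73 and 8.72 in wild type cells, and the mitosis medians 8.35 and 8.63 in knockout and 8.41 and 8.62 in wild type cells. Each of these lay below every array of set 2.

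**Figure D1:**
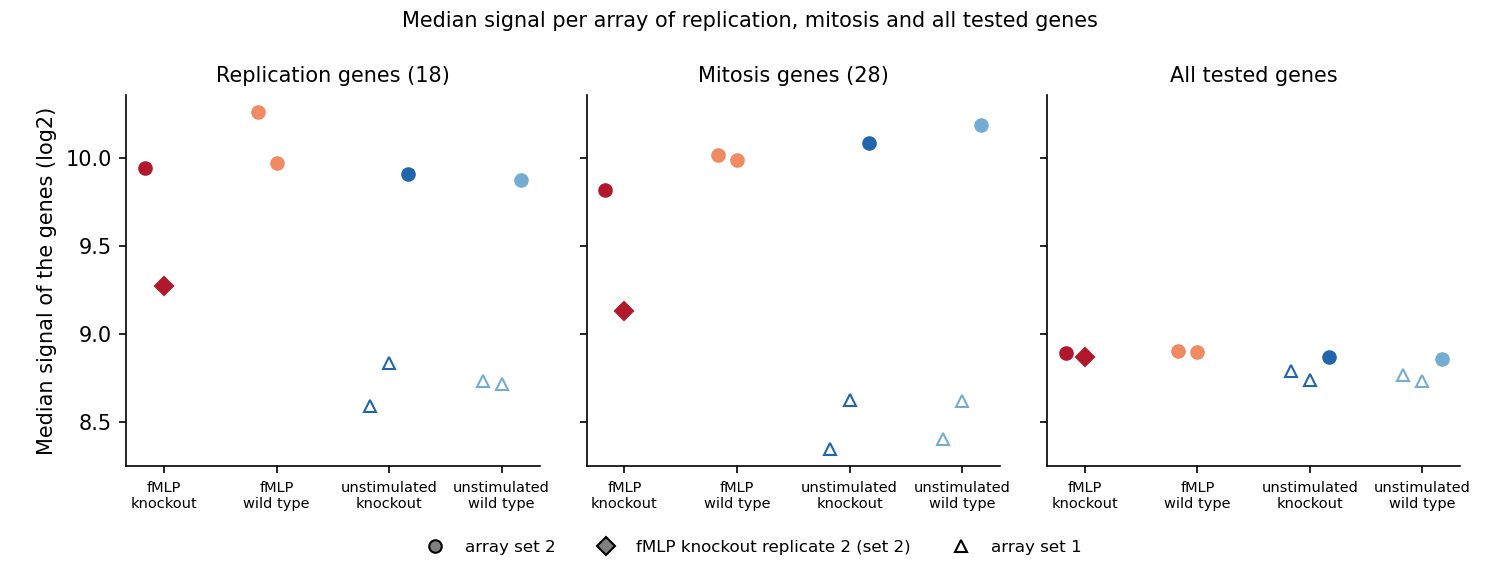
Median signal (log2) on each of the 10 arrays of 18 replication genes, 28 mitosis genes and 14070 tested genes, by group. Filled symbols are array set 2, with a diamond for fMLP knockout replicate 2, and open triangles are array set 1. Mitosis medians of the 4 fMLP arrays, 9.13 to 10.02, lie below the unstimulated values of set 2, 10.08 and 10.19. The closest, 10.02 and 10.08, differ by less than the residual SD of the mitosis medians, 0.24.

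The first question was how fMLP arrays differ from unstimulated ones. With all 10 arrays, 0 of 45 cell cycle genes were called higher or lower after fMLP by limma (Benjamini-Hochberg adjusted p below 0.05), where 0.149% of all tested genes were called higher and 0.192% lower. At an unadjusted p below 0.05 there were 3 of 17 replication and 13 of 28 mitosis genes, and 2056 of 14070 genes. The median fMLP difference was 0.02 for replication genes and -0.42 for mitosis genes on the log2 scale, against -0.02 for all tested genes, with 9 of 17 and 2 of 28 above 0. Without fMLP knockout replicate 2 the medians were 0.18 and -0.26, against -0.01, and 8 of the 45 genes were called, 3 replication genes higher, 1 replication gene and 4 mitosis genes lower. In that fit 6.36% of all tested genes were called higher and 3.79% lower, so 3 of 17 (replication, higher) and 4 of 28 (mitosis, lower) stand against 895 and 533 of 14070. The lone fMLP knockout array was assumed to vary like the other groups. Without fMLP knockout replicate 1, which leaves the array with neuron signal as the only fMLP knockout array, 5 replication and 21 mitosis genes were called lower and 0 higher, where 16.9% of all genes were called lower and 12% higher.

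Genes whose arrays did not overlap between fMLP and unstimulated cells were counted as well. All 4 fMLP arrays lay below both unstimulated arrays of set 2 in 18 of 28 mitosis genes and 3 of 17 replication genes (Ccne2, Pcna and Tk1), against 20.2% of all tested genes. For Tk1 this held only in the probe set used here. The other one read 9.27 to 10.00 on the fMLP arrays, and 9.43 and 9.41 on the unstimulated knockout and wild type arrays of set 2. The 4 fMLP arrays lay above both in 0 of 28 and 0 of 17, against 11.9%. These 0 counts rest on fMLP knockout replicate 2, which stood under the average of the other fMLP arrays in all 46 genes. With the 3 fMLP arrays other than knockout replicate 2, 18 mitosis and 3 replication genes lay below, against 28.7%, and 2 mitosis and 8 replication genes lay above, against 26.8%. The 8 were Cdt1, Fen1, Mcm2, Mcm3, Mcm5, Mcm7, Rrm2 and Uhrf1, and the 2 were Cdca3 and Foxm1. These counts describe few arrays and have no test of their own.

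**Figure D2:**
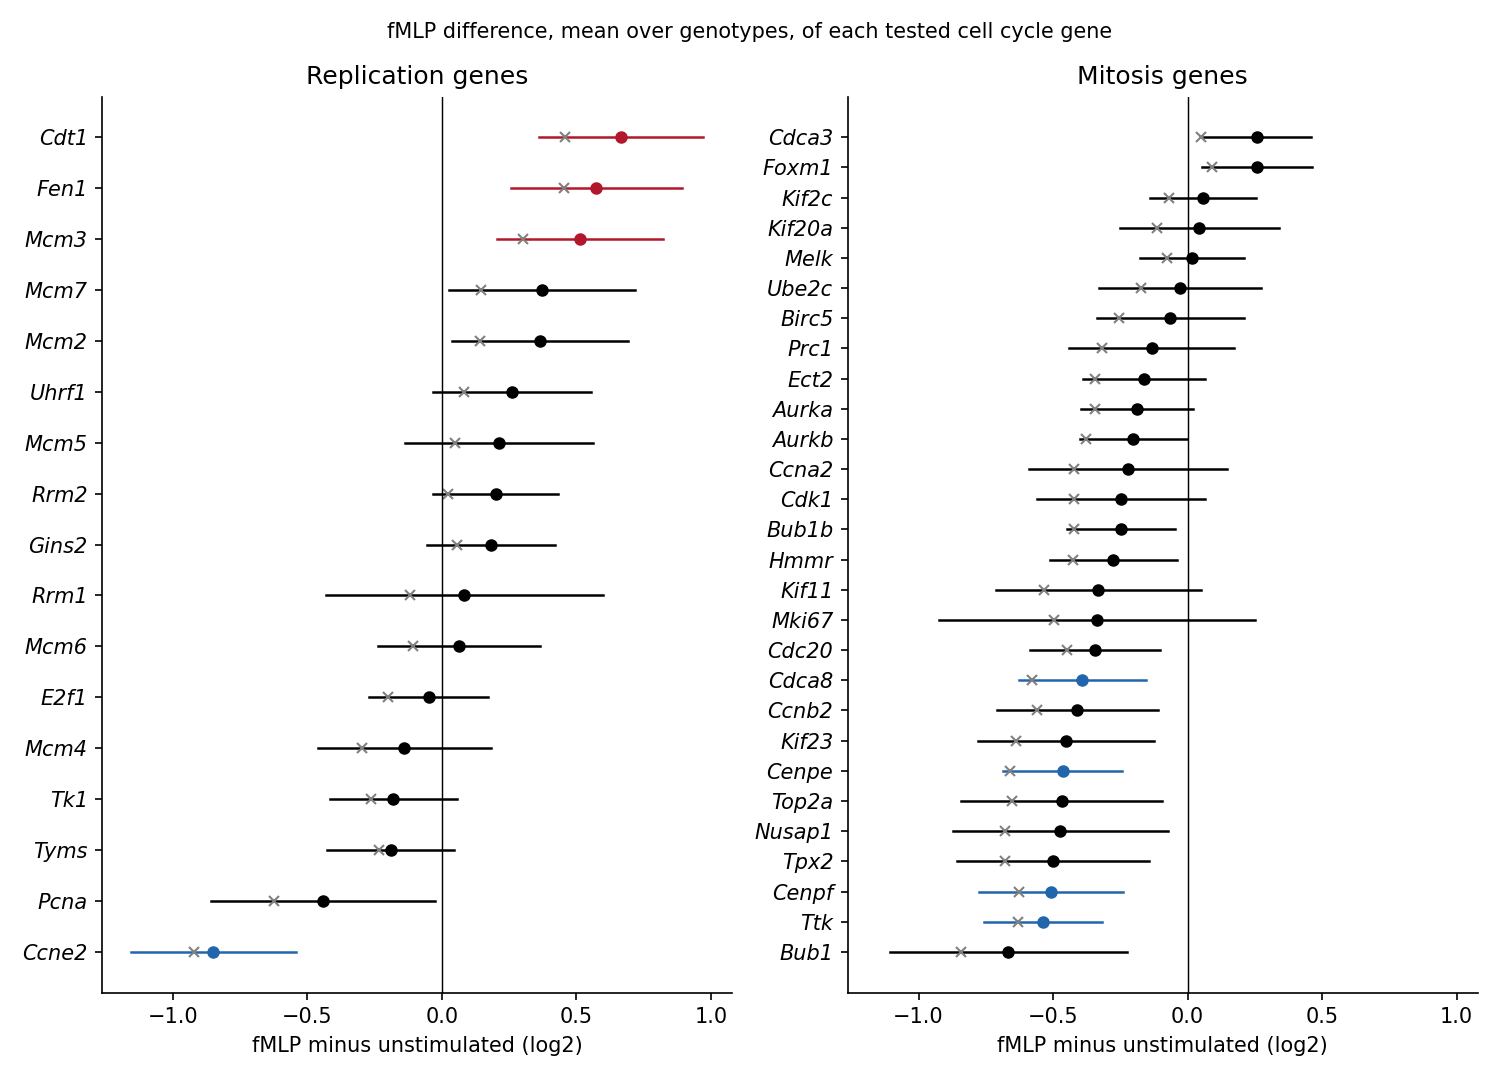
fMLP minus unstimulated difference (log2, mean over genotypes) of 17 replication and 28 mitosis genes. Circles with lines are the estimate and its 95% interval without fMLP knockout replicate 2, in red or blue where the adjusted p was below 0.05 (higher or lower), and grey crosses are the estimate with all 10 arrays. Cdt1 (0.67) and Ccne2 (-0.85) stand at the ends of the replication genes, and 23 of 28 mitosis circles lie below 0.

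Among the genes that license origins, Cdt1, which loads the MCM helicase, had signals of 10.65 and 9.81 in fMLP knockout cells, 10.90 and 10.44 in fMLP wild type cells, 9.35, 9.18 and 10.03 in unstimulated knockout cells and 9.13, 9.31 and 9.96 in unstimulated wild type cells (replicates 1 to 3). The 3 fMLP arrays other than knockout replicate 2 lay above all 6 unstimulated arrays. Its fMLP difference was 0.46 (SE 0.23, adjusted p = 0.409) with all arrays and 0.67 (SE 0.14, adjusted p = 0.0151), or 1.59-fold, without that array.

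Mcm3, a subunit of the same helicase, had signals of 9.64 and 8.80 in fMLP knockout cells, 9.89 and 9.52 in fMLP wild type cells, 8.09, 8.31 and 9.11 in unstimulated knockout cells and 8.26, 8.56 and 9.21 in unstimulated wild type cells. Here too knockout replicate 2 was the only fMLP array below the unstimulated arrays of set 2. The difference was 0.30 (SE 0.23, adjusted p = 0.603) with all arrays and 0.51 (SE 0.14, adjusted p = 0.0436) without it. The other 5 subunits of the ring, Mcm2, Mcm4, Mcm5, Mcm6 and Mcm7, had differences of -0.14 (Mcm4) to 0.37 (Mcm7) without that array and were not called. Mcm5 averaged 11.11 ± 0.14 (SD, n = 3) on the 3 other fMLP arrays and 10.87 on the 2 unstimulated arrays of set 2. Its difference in the fit without knockout replicate 2, which weighs the genotypes equally and not the arrays, was 0.21. Gins2, a GINS subunit, differed by 0.18 (adjusted p = 0.339).

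Fen1, the nuclease that trims Okazaki fragments, had signals of 9.13 and 8.65 in fMLP knockout cells, 9.28 and 9.27 in fMLP wild type cells, 8.50, 8.09 and 8.70 in unstimulated knockout cells and 8.16, 8.51 and 8.56 in unstimulated wild type cells. Both fMLP wild type arrays and fMLP knockout replicate 1 exceeded every unstimulated array. The difference was 0.45 (SE 0.18, adjusted p = 0.297) with all arrays and 0.57 (SE 0.14, adjusted p = 0.0328) without knockout replicate 2. Pcna, the sliding clamp that Fen1 binds, pointed the other way, with 11.91 and 11.19 in fMLP knockout cells, 12.08 and 12.04 in fMLP wild type cells, and 12.47 and 12.39 on the unstimulated knockout and wild type arrays of set 2. All 4 fMLP arrays lay below both unstimulated ones, with a difference of -0.62 (SE 0.25, adjusted p = 0.299), or -0.44 (adjusted p = 0.178) without knockout replicate 2.

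Of the nucleotide enzymes, Rrm1 and Rrm2, the subunits of ribonucleotide reductase, had fMLP differences of -0.12 and 0.02 with all arrays and 0.08 and 0.20 without knockout replicate 2, with adjusted p of 0.878 and 0.283 in the second fit. Tyms, thymidylate synthase, stood at -0.19 (adjusted p = 0.314) and Tk1, thymidine kinase, at -0.18 (adjusted p = 0.340) in that fit. A further Tk1 probe set read 9.45 and 9.27 in fMLP knockout cells, 10.00 and 9.48 in fMLP wild type cells, and 9.43 and 9.41 on the unstimulated knockout and wild type arrays of set 2, where the one used here read 9.80 and 9.79, so the 2 probe sets disagree. Uhrf1, which maintains DNA methylation behind the fork, stood at 0.26 (adjusted p = 0.266) and the transcription factor gene E2f1 at -0.05 (adjusted p = 0.823). None of these 6 genes was called.

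Ccne2 encodes cyclin E2, which drives entry into S phase with Cdk2. It had signals of 8.76 and 8.46 in fMLP knockout cells, 9.23 and 9.18 in fMLP wild type cells, 7.06, 7.46 and 9.90 in unstimulated knockout cells and 7.22, 7.50 and 9.76 in unstimulated wild type cells. Every fMLP array lay between the unstimulated arrays of set 1 and those of set 2, and both fMLP knockout arrays lay below both fMLP wild type arrays. The difference was -0.92 (SE 0.15, adjusted p = 0.0592) with all arrays, short of the threshold, and -0.85 (SE 0.14, adjusted p = 0.00508), or 1.80-fold lower, without knockout replicate 2. It was the replication gene with the largest fMLP difference in either fit, and its direction is that of the mitosis genes.

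In mitosis, the spindle checkpoint kinase gene Ttk had signals of 8.28 and 7.91 in fMLP knockout cells, 8.71 and 8.65 in fMLP wild type cells, 7.98, 8.01 and 9.04 in unstimulated knockout cells and 7.84, 7.67 and 9.00 in unstimulated wild type cells. All 4 fMLP arrays lay below the unstimulated arrays of set 2. Its difference was -0.63 (SE 0.13, adjusted p = 0.102) with all arrays and -0.54 (SE 0.10, adjusted p = 0.00916) without knockout replicate 2. Bub1 and Bub1b, further checkpoint kinase genes, stood at -0.84 (adjusted p = 0.188) and -0.42 (adjusted p = 0.312) with all arrays, and at -0.67 (adjusted p = 0.0620) and -0.25 (adjusted p = 0.120) without it. Bub1 had the largest fMLP difference of the 28 mitosis genes in both fits.

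Cenpf, a protein of the outer kinetochore, had signals of 8.95 and 8.47 in fMLP knockout cells, 9.15 and 9.18 in fMLP wild type cells, 7.99, 8.31 and 9.51 in unstimulated knockout cells and 7.98, 8.20 and 9.61 in unstimulated wild type cells. Cenpe, the kinetochore kinesin, had 8.94 and 8.15 in fMLP knockout cells, 9.32 and 9.21 in fMLP wild type cells, 7.49, 7.46 and 9.61 in unstimulated knockout cells and 7.69, 7.57 and 9.53 in unstimulated wild type cells. Cdca8, a subunit of the chromosomal passenger complex, had 9.42 and 8.67 in fMLP knockout cells, 9.69 and 9.58 in fMLP wild type cells, 8.34, 8.41 and 9.91 in unstimulated knockout cells and 8.55, 8.27 and 9.92 in unstimulated wild type cells. In all 3 genes the 4 fMLP arrays lay below the 2 unstimulated arrays of set 2. The differences were -0.63, -0.66 and -0.58 with all arrays, with adjusted p of 0.140, 0.182 and 0.219. Without knockout replicate 2 all 3 genes were called, Cenpf at -0.51 (SE 0.12, adjusted p = 0.0271), Cenpe at -0.46 (SE 0.10, adjusted p = 0.0176) and Cdca8 at -0.39 (SE 0.11, adjusted p = 0.0436). The 8 genes called in that fit were picked out after their values had been seen.

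**Figure D3:**
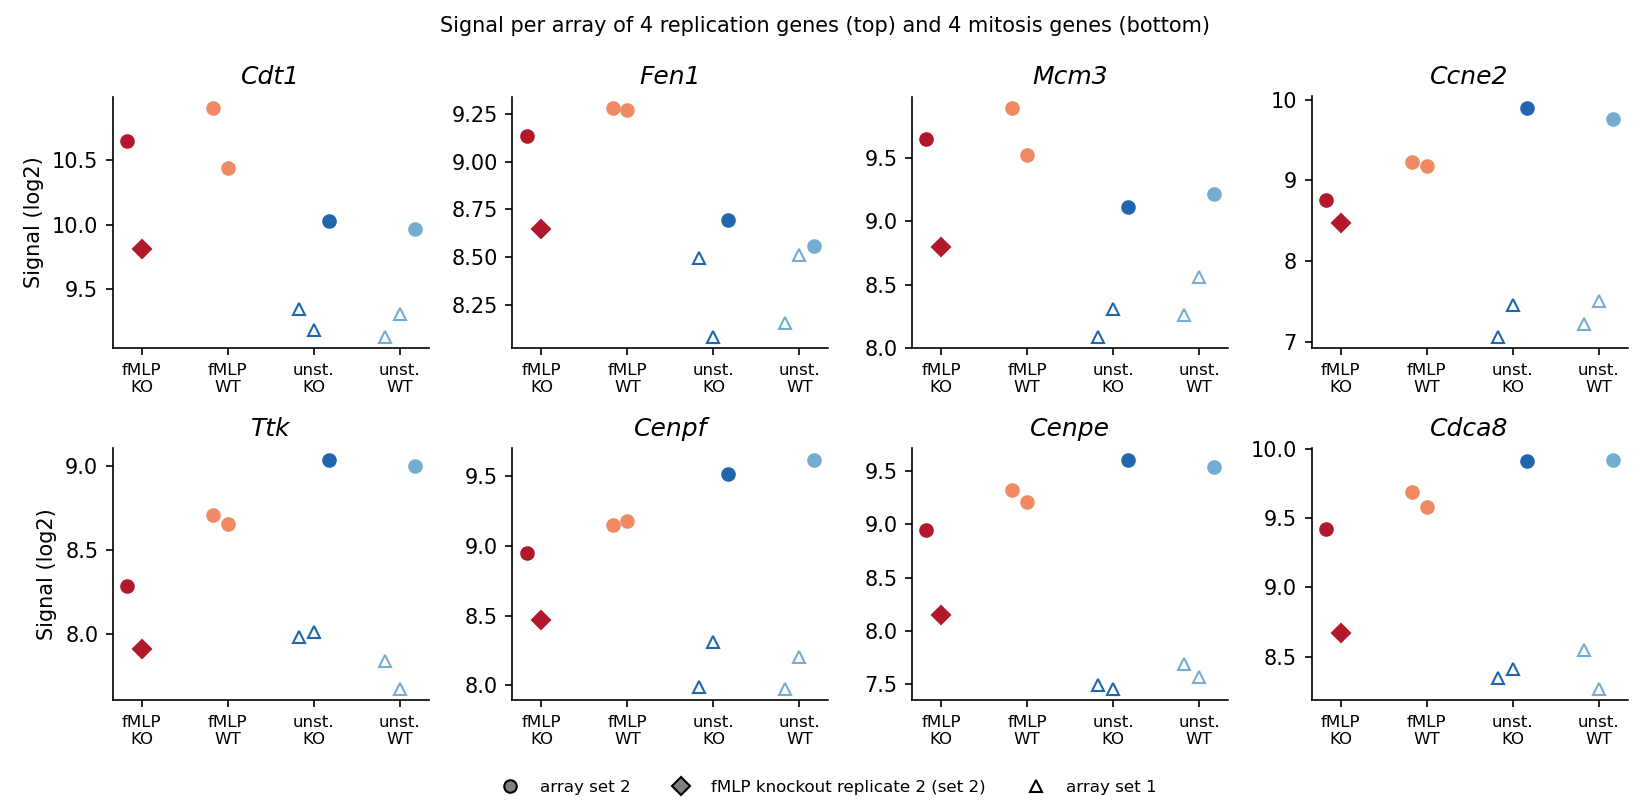
Signal (log2) of 4 replication genes (top row) and 4 mitosis genes (bottom row) on each array, by group, with symbols as in the plot of list medians. The vertical axes do not start at 0 and differ between genes. In Cdt1, Fen1 and Mcm3 the filled circles after fMLP lie above the filled unstimulated ones, and in the other 5 genes they lie below.

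The cyclins and kinases that drive mitosis were lower on the fMLP arrays by amounts that were not called. Ccnb2, cyclin B2, had signals of 11.77 and 11.18 in fMLP knockout cells, 11.94 and 11.83 in fMLP wild type cells, and 12.25 and 12.23 on the unstimulated knockout and wild type arrays of set 2, a difference of -0.56 (SE 0.19, adjusted p = 0.221), or -0.41 (adjusted p = 0.0856) without knockout replicate 2. Ccna2, cyclin A2, and Cdk1, their kinase, stood at -0.22 (adjusted p = 0.470) and -0.25 (adjusted p = 0.324) in the second fit. Mki67, the proliferation marker that coats mitotic chromosomes, stood at -0.34 (adjusted p = 0.495) and Top2a, the topoisomerase that untangles chromosomes, at -0.47 (adjusted p = 0.113). For each of these 5 genes all 4 fMLP arrays lay below both unstimulated arrays of set 2.

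Of the spindle genes, Nusap1, Tpx2 and Kif23, which bundle or nucleate spindle microtubules or serve cytokinesis, stood at -0.68, -0.68 and -0.64 with all arrays, and at -0.47, -0.50 and -0.45 without knockout replicate 2, with adjusted p of 0.136, 0.0810 and 0.0852. The Aurora kinase genes Aurka and Aurkb stood at -0.19 and -0.20 in that fit, and Birc5, a partner of Aurora B, at -0.06. Ube2c and Cdc20, which serve the anaphase-promoting complex, stood at -0.03 and -0.34. The highest values were 0.26 for Cdca3, which targets the kinase Wee1 for degradation, and 0.26 for Foxm1, the transcription factor of the G2 and M genes, with adjusted p of 0.102 and 0.113. Foxm1 had signals of 9.88 and 9.21 in fMLP knockout cells, 10.01 and 10.01 in fMLP wild type cells, and 9.66 and 9.71 on the unstimulated knockout and wild type arrays of set 2, and all fMLP arrays but knockout replicate 2 lay above those. Melk read 8.43 to 8.84 on all 10 arrays.

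By genotype, the fMLP differences had a median of -0.27 for replication and -0.68 for mitosis genes in knockout cells, and of 0.14 and -0.21 in wild type cells. No member was called in either, where limma called 0.0853% of all genes in knockout and 0.0782% in wild type cells. Without fMLP knockout replicate 2 the medians in knockout cells were 0.08 and -0.38, and those in wild type cells were as before. Then 2 members were called in knockout cells, Ccne2 (-1.06, adjusted p = 0.0246) and Ttk (-0.82, adjusted p = 0.0195), where 2.15% of all genes were called. In wild type cells Cdt1 (0.70, adjusted p = 0.0338) and Ccne2 (-0.64, adjusted p = 0.0476) were called, where 5.15% of all genes were. Each genotype's median was higher for replication than for mitosis genes in both fits. Without fMLP knockout replicate 1, 9 replication and 27 mitosis genes were called lower in knockout cells, where 38.6% of all genes were called.

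The second question was whether loss of Lcn2 changes cell cycle genes. In unstimulated cells limma called 0 of 45 members and 1 gene in all (0.00711%), Lcn2 itself, and 0 members and 75 of 14070 genes had an unadjusted p below 0.05. The median knockout minus wild type difference was 0.00 for replication and -0.02 for mitosis genes on the log2 scale, against 0.01 for all tested genes. Differences of single members ran from -0.24 to 0.17, and the outermost ends of their 95% intervals were -0.76 and 0.64. Kif23 had the lowest value (-0.24, SE 0.21) with pair differences of -0.57, 0.09 and -0.26 for replicates 1 to 3, and Ttk the highest (0.17, SE 0.12) with 0.14, 0.34 and 0.04. The replication genes Mcm3 and Pcna stood at -0.18 (SE 0.22) and -0.16 (SE 0.23). By same-numbered pairs, 6 of 46 members were higher in the knockout in all 3 pairs and 4 lower in all 3, against 2355 and 1709 of 14070 genes. The medians over the 46 genes were -0.09, 0.03 and 0.02 in the 3 pairs.

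After fMLP the knockout arrays lay below their wild type pairs in nearly every member, by more in the pair that holds the array with neuron signal. In the pair of replicates 2, all 46 genes were lower in the knockout, with medians of -0.71 for replication and -0.88 for mitosis genes, and the medians of promyelocyte (-1.21), mature neutrophil (-0.87), early B cell (-0.84) and erythroid genes (-0.69) were below 0 as well. In the pair of replicates 1, 45 of 46 were lower, with medians of -0.21 and -0.21, against -0.01 for all tested genes and -0.03 for the promyelocyte list. In the same pair all 14 erythroid genes were lower in the knockout (median -0.28) and 10 of 11 early B cell genes were higher (median 0.31), and the part of these marker differences was not tested. With both pairs the medians were -0.46 and -0.56, and limma called 0 members, where 0.00711% of all genes were called, with 3 replication and 17 mitosis genes at an unadjusted p below 0.05, and 1182 of 14070 genes. Without knockout replicate 2 the medians were -0.13 and -0.21, limma called 0 members (0.00711% of all genes), and 7 of 45 members and 255 of 14070 genes had an unadjusted p below 0.05. Ccne2 and Ttk then stood at -0.45 (95% interval -0.85 to -0.05) and -0.40 (-0.68 to -0.11), with an adjusted p near 1 for both. Without knockout replicate 1, 15 replication and 27 mitosis genes were called lower, where 45.5% of all genes were called.

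The difference of the fMLP responses between the genotypes, knockout minus wild type, had medians of -0.40 for replication and -0.54 for mitosis genes with all arrays. Limma called 0 members and 0% of all genes, with 6 of 45 members and 258 of 14070 genes at an unadjusted p below 0.05. Without knockout replicate 2 the medians were -0.07 and -0.17, with 0 members called and 3 members and 125 genes in all at an unadjusted p below 0.05. Without knockout replicate 1 they were -0.74 and -0.89, with 12 replication and 24 mitosis genes called lower, where 35% of all genes were called. Members were called for this difference only in that fit, in which the array with neuron signal stood alone for its group, among the alternatives run.

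**Figure D4:**
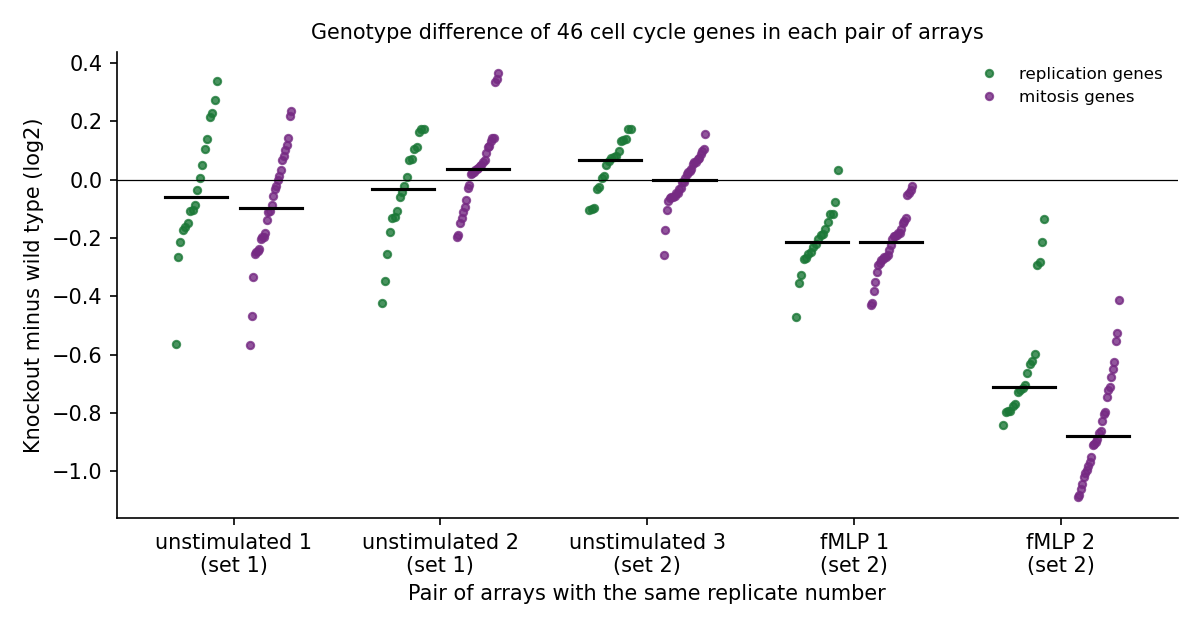
Knockout minus wild type difference (log2) of 18 replication and 28 mitosis genes in each of the 5 pairs of arrays with the same replicate number. Each point is a gene and each black line a median. The unstimulated pairs scatter around 0, while 45 of 46 genes in fMLP pair 1 and all 46 in fMLP pair 2, which holds the array with neuron signal, lie below 0.

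Further cell cycle genes were drawn up from general knowledge, and their counts without fMLP knockout replicate 2 stand against 6.36% of all tested genes called higher and 3.79% lower. Of 38 other replication genes tested, 0 were called with all arrays (median fMLP difference -0.11), and without knockout replicate 2 there were 2 higher and 1 lower (median 0.03), near the shares of all genes. Rfc3 and Rfc5, subunits of the clamp loader, rose by 0.47 (SE 0.10, adjusted p = 0.0163) and 0.55 (SE 0.11, adjusted p = 0.0142), and Hells, a chromatin remodeller, fell by 0.54 (SE 0.10, adjusted p = 0.00853). Of 52 other mitosis genes, 0 were called with all arrays (median -0.42), and 14 were called lower and 0 higher without that array (median -0.27). Among them Cks1b, a partner of cyclin-dependent kinases, stood at -0.64 (adjusted p = 0.00569), Ckap5, a microtubule polymerase, at -0.64 (adjusted p = 0.00602), Zwilch, a kinetochore checkpoint protein, at -0.48 (adjusted p = 0.0103), and Spc25, of the NDC80 complex, at -0.50 (adjusted p = 0.0186). Of 26 genes of G1 control and cell cycle exit, 2 rose and 2 fell without that array, the higher count near the share of all genes. Ccnd3, cyclin D3, rose by 0.61 (adjusted p = 0.0168) and Lin37, a MuvB subunit, by 0.36 (adjusted p = 0.0370). Rbl1, which encodes the pocket protein p107, and Cdkn2c, which encodes a Cdk inhibitor, fell by 0.46 (adjusted p = 0.0258) and 0.40 (adjusted p = 0.0321). With all arrays 0 of these 26 were called. Like the members, these further lists were drawn up with earlier results of these data known. They were read on the same arrays, so their counts are no independent repeat.

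Markers of the cells in the preparation also differed between the same arrays. The median of 12 promyelocyte and primary granule genes was 10.38 and 9.37 in fMLP knockout cells, 10.43 and 10.75 in fMLP wild type cells, and 11.18 and 11.28 on the unstimulated knockout and wild type arrays of set 2. Without knockout replicate 2, 6 of the 12 were called lower and 0 higher, in the fit that called 6.36% of all genes higher and 3.79% lower. Of 9 early B cell genes tested, 6 were called higher and 0 lower in that fit (median 0.64), and of 14 erythroid genes 2 were called higher (median 0.22). The early B cell list did not move as a whole. Igll1 averaged 10.39 on the fMLP arrays other than knockout replicate 2 and 10.79 on the unstimulated arrays of set 2. Vpreb1 (7.64 and 7.93) and Dntt (7.53 and 7.80) were lower too, while the other genes of that list were higher, such as Cd79a (12.32 and 11.40). The early B cell median was 10.69 and 9.62 in fMLP knockout cells, 10.40 and 10.56 in fMLP wild type cells, and 10.47 and 10.06 on the unstimulated knockout and wild type arrays of set 2. The promyelocyte medians of the 4 fMLP arrays thus lay below both unstimulated ones, while the early B cell medians overlapped. The erythroid median was 10.18 and 9.28 in fMLP knockout cells, 10.48 and 10.09 in fMLP wild type cells, and 10.14 and 10.25 on the same unstimulated arrays, and overlapped too. Of 9 stem and progenitor genes 1 was called lower (median -0.17). Of 10 mature neutrophil genes 1 was called higher (median -0.03), and of 12 myelocyte and secondary granule genes 0 were called (median 0.03). The part of these marker differences in the cell cycle results was not tested, and which cells the cell cycle signal came from was not measured.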

How the data were processed

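Expression was read from 10 Affymetrix Mouse Gene ST arrays, 1 per sample. The deposited values are RMA signals made in Affymetrix Expression Console, per the submitters' processing notes. Their range is that of log2 values, and the authors' values are treated as log2 here, although no source used here states the base. Of 35556 probe sets, 21789 name 1 gene, 1621 several and 12146 none.

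All 10 arrays were fitted together with limma 3.58.1 in R 4.3.3, with a term for each group and for the array set (interquartile range below or above 2.0), and moderated variances. Tests were two-sided, p-values were adjusted by Benjamini-Hochberg over 14070 genes, and a gene was called at an adjusted p below 0.05. The fit of all 10 arrays was checked on simulated data with independent noise. That check held no outlying array and did not cover the fits with an array left out. Log2 differences are fMLP minus unstimulated or knockout minus wild type. The members and lists were chosen with earlier results of these data known, and lists are described by counts and medians. Members to name were to be the 4 of highest mean in each list, the 3 and 2 with the largest fMLP and unstimulated genotype differences, and called members. Of the other cell cycle lists, called genes were named, but in the mitosis list only those of smallest p. Alternatives were no array set, either set alone, renewed quantile normalization, median centring, other filters and probe set rules, robust moderation with a trend, weights per array, a replicate block (statmod 1.5.0) and leaving out each array.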

Additional observations from a re-analysis of the deposited data

How the results depend on the processing

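The values depended most on the array set and on the fMLP knockout arrays. Without the array set, the medians of replication and mitosis genes were 0.87 and 0.83 for fMLP over both genotypes, 0.64 and 0.62 in knockout and 1.04 and 1.004 in wild type cells, with 0 members called. Differences then turned to above 0 for Pcna (0.56), Rrm1 (1.68), Ccne2 (0.76), Ccnb2 (0.83), Mki67 (0.88), Ccna2 (1.12), Ube2c (0.38), Bub1 (0.97), Nusap1 (1.13), Tpx2 (0.89), Cdca8 (0.44), Ttk (0.13), Cenpe (0.68) and Cenpf (0.33). The directions of the mitosis genes thus rest on comparing fMLP arrays with unstimulated arrays of set 2. The number of members called for fMLP was 1 with the filter at the 75th percentile (61 of 7474 genes in all), 1 with trend and robust moderation (77 of 14070) and 8 with array weights (765 of 14070), and 22 in wild type cells with array weights (3731 of 14070). The unstimulated genotype difference of Pcna (-0.16) was 0.0811 in the set 2 pair alone and 0.00904 with array weights. With 1 array left out, members called ran from 0 to 26 for fMLP, 0 to 36 in knockout and 0 to 2 in wild type cells, 0 to 0 for genotype in unstimulated and 0 to 42 in fMLP cells, and 0 to 36 for the difference of responses. Medians of replication and mitosis genes ran from -0.15 to 0.18 and -0.59 to -0.26 for fMLP, -0.579 to 0.0797 and -1.01 to -0.38 in knockout cells, -0.84 to -0.13 and -0.91 to -0.21 for genotype after fMLP, and -0.745 to -0.0734 and -0.894 to -0.174 for the difference of responses. In wild type cells they ran from 0.04 to 0.27 and -0.24 to -0.16. Single differences that changed sign ran from -0.15 to 0.20 (Rrm2), -0.12 to 0.21 (Mcm5), -0.322 to 0.0828 (Rrm1) and, for genotype, -0.296 to 0.0449 (Pcna). The cause was not tested beyond the arrays left out.

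Same-numbered unstimulated arrays deviated from their group means together (correlations of 0.949, 0.929 and 0.988), which holds the array set. With the set removed replicates 1 and 2 still did (0.376 and 0.371). Set 1 holds only these 2 arrays of each unstimulated group, so their deviations nearly mirror each other and the 2 values are not independent. Replicate 3, alone in its set and group, gives no such value. The fMLP pairs gave a single value (0.0598), because with 2 arrays per group the deviations mirror each other. That value includes the array with neuron signal and cannot decide whether the fMLP arrays are paired. The numbers were not taken to pair the samples, and a replicate block was run as an alternative. With a replicate block, 0 members were called in any comparison. The medians for genotype (0.00 and -0.02 in unstimulated and -0.46 and -0.56 in fMLP cells) cannot change with that block. Both genotypes hold the same replicate numbers, so the unchanged medians are no check. Renewed normalization, centring, no filter and the other probe set rules left 0 members called. With set 2 alone 0 members were called for fMLP, with 1 of 17 and 4 of 28 at an unadjusted p below 0.05.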

Other observations

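Top2a has a second probe set that names it alone, which read 4.34 to 5.41 on the 10 arrays and so stayed below the filter. A pair of probe sets that name Top2a together with another gene read 7.47 and 5.64, and 7.54 and 6.06, in fMLP knockout cells, 7.74 and 7.21, and 7.65 and 7.21, in fMLP wild type cells, and 6.02 and 6.12, and 6.16 and 6.24, on the unstimulated knockout and wild type arrays of set 2. They were higher on the 3 fMLP arrays other than knockout replicate 2 than on both unstimulated arrays, while the Top2a probe set used in the comparisons was lower there. Both Pcna probe sets that name it alone gave close values, 11.91 and 11.20 with the one not used, against 11.91 and 11.19 with the one used, in fMLP knockout cells.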
